A study of Mus musculus with 5 samples.

Results

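The 10 genes described here are H19, Igf2, Ascl2, Tspan32, Kcnq1, Kcnq1ot1, Cdkn1c, Slc22a18, Phlda2 and Osbpl5, which belong to the imprinted cluster of distal mouse chromosome 7. They were chosen by name, with earlier results of these data known, and all 10 were found among the 49603 genes of the RefSeq table. CTCF peaks were taken from 200 kb before H19 to 200 kb after Osbpl5 (chr7:142375530-143957008, mm10), which gave 37 of the 22756 listed peaks. No peak was listed at the H19 imprinting control region or at the Kcnq1ot1 start. Both regions were short, at 2.00 and 4.00 kb, beside a median gap of 26.6 kb between neighbouring peaks of the window. H19, Igf2, Ascl2 and Kcnq1ot1 had no peak in or within 10 kb of the gene. The other 6 had at least 1, against 36.2% of all genes. A single peak lay between H19 and Igf2, in the middle of that interval. The longest stretch without a peak, 310 kb, ran from inside Kcnq1 across Cdkn1c.

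The binding protein CTCF was mapped by chromatin immunoprecipitation followed by sequencing, in the mouse fibroblast line NIH3T3. All cells carried H2B-mCherry, the rtTA3G transactivator and CDX2 under the doxycycline-responsive TRE3G promoter. CDX2 is a homeobox factor that acts in trophectoderm and gut. The 5 libraries were 2 CTCF precipitations after 6 h with doxycycline (CTCF_Dox, 500 ng/µL as labelled, a concentration not verified here), 2 CTCF precipitations without doxycycline (CTCF_noDox) and 1 input without doxycycline. Whether the cells were 1 clone is not given in the sources used here, and no group received doxycycline without carrying the CDX2 transgene. The deposited list merges both conditions and gives positions only, with no height, score or sample, so CTCF_Dox was not compared with CTCF_noDox. Depth is unknown, there is no replicate spread, and no test was made. Neither the fibroblast identity nor CDX2 induction could be checked in a list of positions. The threshold behind the list is not known here, so a region without a listed peak is not shown to be unbound, and why it has none was not tested.

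Imprinted genes are expressed from the maternal or the paternal copy, and clusters of them are governed by control regions whose DNA methylation differs between the copies. At the H19 imprinting control region, CTCF is known to bind the unmethylated maternal copy, where it insulates Igf2 from enhancers on the far side of H19. In the neighbouring domain the control region, KvDMR1, contains the promoter of the long non-coding RNA Kcnq1ot1, which silences surrounding genes on the paternal copy. The list does not tell the parental copies apart.

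**Figure D1:**
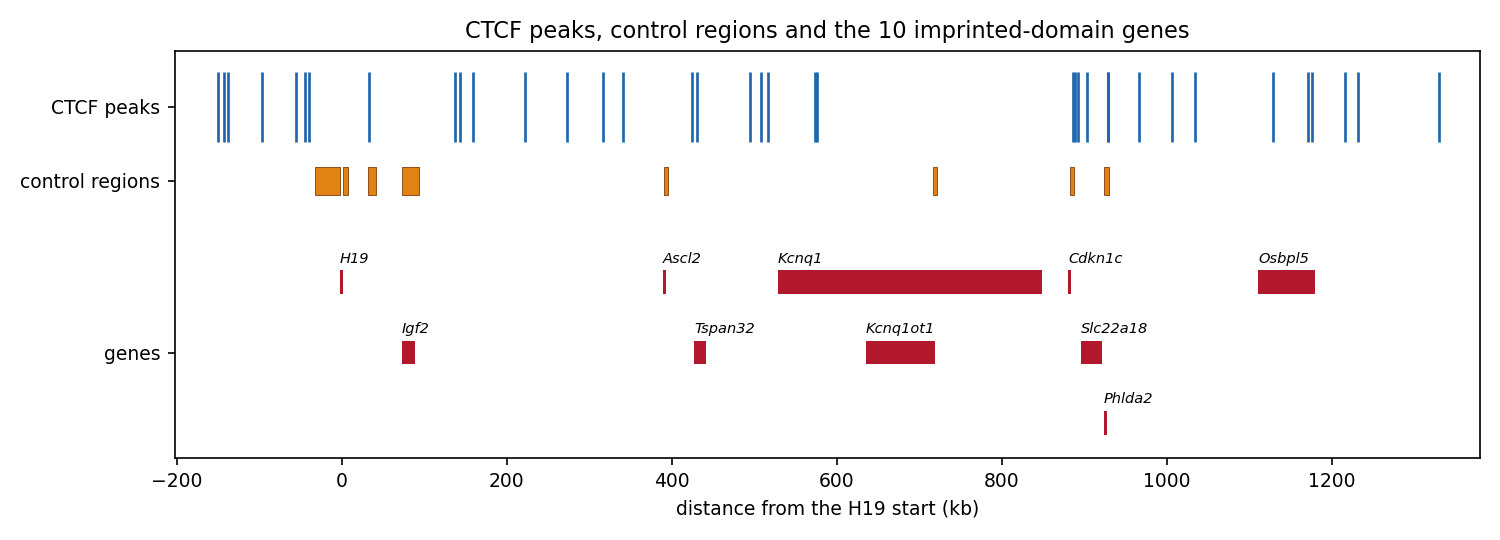
Map of the window, with distance from the H19 start in kb on the x axis. Blue lines are the 37 CTCF peaks, orange boxes the 8 control regions and red boxes the 10 genes (small boxes are drawn at a minimum width). The widest space between neighbouring blue lines, 310 kb, covers Kcnq1ot1, most of Kcnq1 and Cdkn1c.

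The sequences below show the peak between H19 and Igf2, a peak near Cdkn1c, and the Kcnq1ot1 promoter, where a peak was looked for and none was listed. The peaks were taken because a promoter window holds them whole or for the most part. Promoter windows touch 4 of the 37 peaks in the domain, and the sequence of the other 33 and of the H19 imprinting control region was not searched here. The sequences come from the RefSeq promoter table (GRCm38.p6, the assembly of mm10), whose windows run from 250 bases before to 50 after a transcript start. The core of the CTCF motif was searched on both strands as CC, any 3 bases, AG, any 2 bases, then GGC, which fixes 7 of 12 letters. Capitals mark the match, and the first sequence is shown with its closest match, in which 1 fixed letter differs. The first is the whole peak between H19 and Igf2 (chr7:142610642-142610854, plus strand), which falls inside a promoter window of the long non-coding RNA Gm33148. The second is the 65.0% of the second of 3 peaks before Cdkn1c (chr7:143466305-143466713) that lies in a promoter window of the long non-coding RNA Gm33663 (chr7:143466448-143466713, minus strand). The third is the Kcnq1ot1 promoter (chr7:143296498-143296797, minus strand).
Gm33148 peak: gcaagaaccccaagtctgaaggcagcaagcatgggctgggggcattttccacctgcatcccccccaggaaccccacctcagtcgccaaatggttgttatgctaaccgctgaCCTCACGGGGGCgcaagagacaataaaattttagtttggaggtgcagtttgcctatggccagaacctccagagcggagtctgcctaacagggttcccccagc
Gm33663 peak: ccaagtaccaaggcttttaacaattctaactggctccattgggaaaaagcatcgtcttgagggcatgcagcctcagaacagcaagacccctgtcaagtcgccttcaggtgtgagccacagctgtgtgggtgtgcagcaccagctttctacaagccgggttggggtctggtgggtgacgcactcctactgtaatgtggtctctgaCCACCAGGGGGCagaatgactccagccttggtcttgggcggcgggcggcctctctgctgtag
Kcnq1ot1 promoter: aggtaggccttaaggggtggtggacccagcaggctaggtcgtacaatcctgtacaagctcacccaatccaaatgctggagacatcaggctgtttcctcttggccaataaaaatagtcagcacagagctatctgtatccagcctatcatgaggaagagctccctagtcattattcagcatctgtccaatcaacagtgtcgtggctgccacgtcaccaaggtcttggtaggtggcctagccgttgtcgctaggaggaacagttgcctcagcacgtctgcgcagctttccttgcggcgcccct

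The Gm33663 peak held an exact match at chr7:143466498-143466509, on the minus strand, with its centre 5.5 bp from the centre of the peak. The Gm33148 peak held no exact match. Its closest match, at chr7:142610753-142610764 on the plus strand, was centred 10.5 bp from the peak's centre and differed by A6C, counted from 1 at the first C of the motif. The Gm33663 stretch held 2 further matches with 1 letter different, 46.5 and 102 bp from the centre and both on the plus strand. The 300 bases of the Kcnq1ot1 promoter held no match even with 1 letter different. The rest of the 4.00 kb set for KvDMR1 was not searched, so its motif content is not known here. Matches also occur away from peaks. Exact matches were found in 29.4% of 710 peaks whose central 60 bases a promoter window holds, against 1.40% of the central 60 bases of 31672 promoter windows without a peak. With 1 letter different allowed, the shares were 67.3% and 19.2%. In whole windows of 300 bases such relaxed matches are common. They occurred in 10 of the 12 promoter windows of the imprinted genes, none of which a peak overlapped, and in 64.0% of all 31672 windows without a peak. The windows with none were that of Kcnq1ot1 and 1 of the 3 of Osbpl5. Over whole windows of 300 bases, 8.61% of 32851 promoters held an exact match, and so did 4 of the 45 promoter windows in the domain (2 of the 5 with a peak, both of Gm33663, and 2 of the 40 without, both of Dhcr7). The 2 windows of Gm33663 are offset by 1 base and hold the same match, so they count 1 site in 1 peak. The relaxed match and the central 60 bases were chosen after the sequences had been seen.

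H19, a maternally expressed long non-coding RNA that hosts the microRNA gene Mir675, lies at chr7:142575530-142578146. No CTCF peak lay in it or within 10 kb of it. Its nearest peaks were 37.3 kb away on the side of Mrpl23 and 32.6 kb away on the side of Igf2. The peak-free stretch around it measured 72.1 kb and also held Nctc1, a muscle-expressed non-coding RNA. Such a stretch is not rare, since 7038 of the 22734 gaps between neighbouring peaks were longer.

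Igf2, the paternally expressed insulin-like growth factor gene (chr7:142650768-142666816), likewise had none in or near it, with the same margin of 10 kb. The nearest peaks lay 40.0 kb away toward H19 and 48.1 kb away beyond the Igf2 start. It shared a peak-free stretch of 104 kb with Mir483, Igf2os and Ins2, the insulin gene that lies next to it. Of all gaps, 5221 were longer. None of the 4 Igf2 promoter windows in the RefSeq table was overlapped by a peak.

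The 72.6 kb from H19 to Igf2 contained the 1 peak whose sequence is given above, 213 bp wide. It lay inside Gm33148, 32.6 kb from the H19 start and 40.0 kb from Igf2. The H19 imprinting control region, placed 2 to 4 kb before the H19 start (chr7:142580146-142582146), held no listed peak, and the nearest interval was this same peak, 28.5 kb away. On the other side the nearest interval was 41.6 kb away. The region within 5 kb of the middle of the interval held the peak. It was set by distance to stand for the centrally conserved domain between the genes, and conservation was not looked at. In the first 30 kb past the H19 end, where its enhancers lie, there was no listed peak, and the nearest interval was 7.02 kb beyond that stretch, in Mrpl23. The Igf2 body with 5 kb before its start, where the Igf2 differentially methylated regions lie, had its nearest intervals at 39.9 and 43.0 kb. Of the 8 control regions, 1 held a peak. All but the H19 enhancers were 2.00 to 21.0 kb long, shorter than the window's median gap of 26.6 kb between neighbouring peaks. A missing peak in a region that short says little by itself, and the share of such intervals without a peak was not computed.

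**Figure D2:**
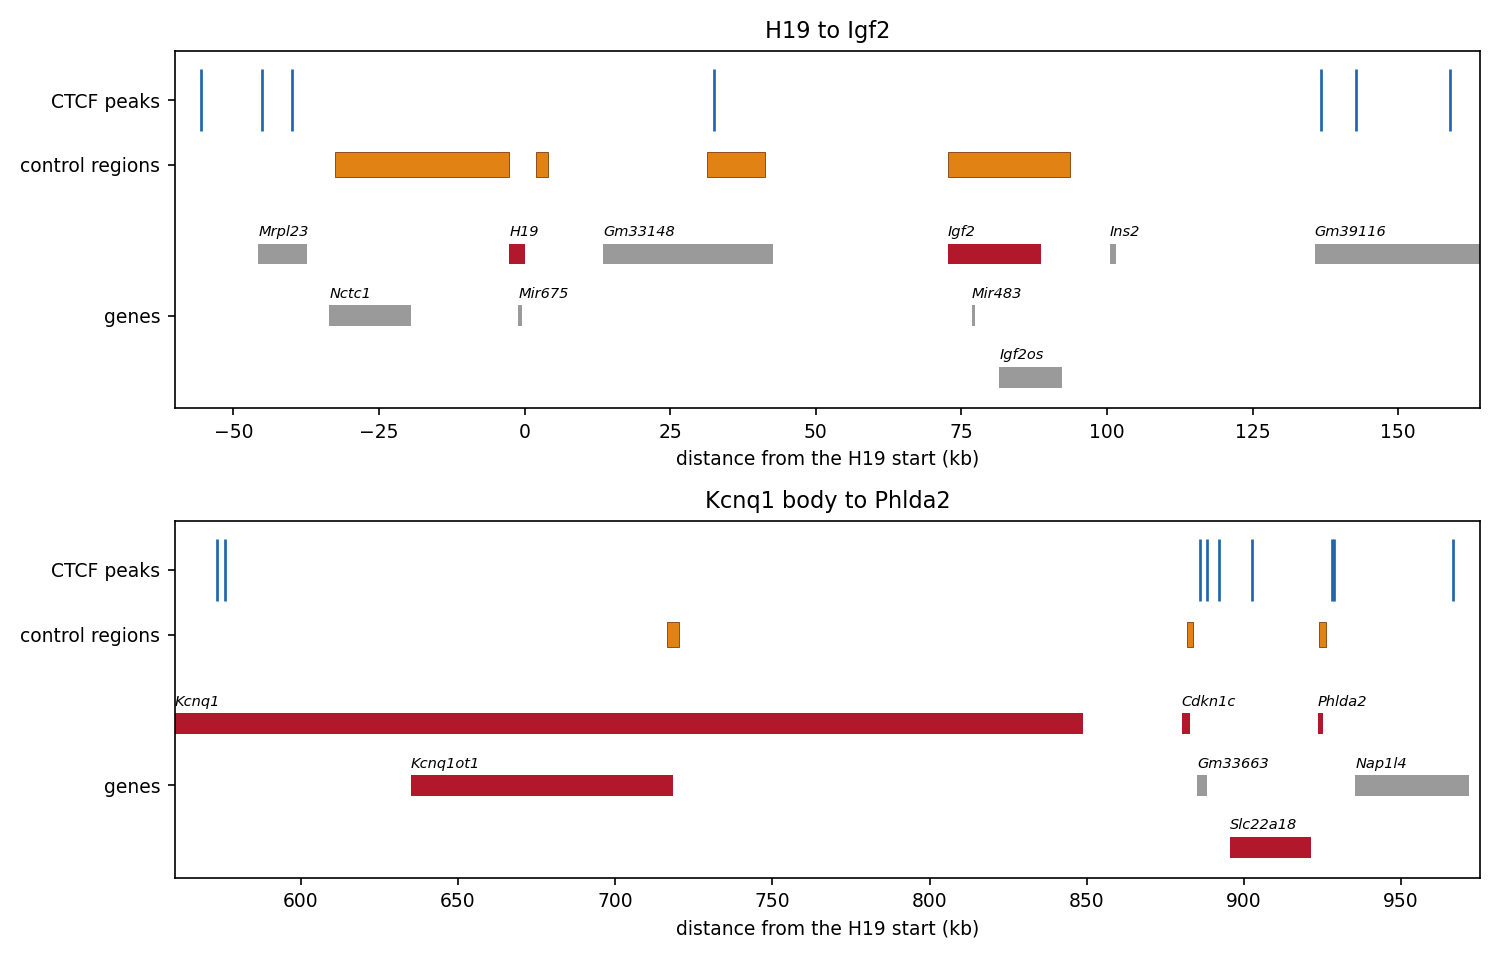
Peaks (blue), control regions (orange), the imprinted genes (red) and other named genes (grey), by distance from the H19 start in kb, around H19 and Igf2 (top) and from Kcnq1 to Phlda2 (bottom). From left to right the orange boxes are the H19 enhancers, the H19 imprinting control region, the middle of the interval and Igf2 with 5 kb before its start (top), and the starts of Kcnq1ot1, Cdkn1c and Phlda2 (bottom). A peak lies in 1 of these 7 boxes, the middle of the H19 to Igf2 interval.

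Between Igf2 and Ascl2, over 300 kb, there were 7 peaks. Of these, 3 lay in the long non-coding RNA Gm39116, at chr7:142714781-142715015, chr7:142720837-142721055 and chr7:142736997-142737238, and Ins2 was the nearest protein-coding gene to each, 35.2 to 57.4 kb away. The peak at chr7:142799533-142799759 had no gene within 31.6 kb, and the one at chr7:142850777-142850954 lay in the overlapping non-coding RNAs Gm6471 and Gm39117. The widest peak of the domain, 585 bp at chr7:142894499-142895083, lay in Th, the tyrosine hydroxylase gene of catecholamine synthesis, and its width stood at percentile 98.1 of the list. The last, at chr7:142919233-142919583, was 19.4 kb beyond Th.

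Ascl2, a basic helix-loop-helix factor needed for the spongiotrophoblast of the placenta, had no peak in it or up to 10 kb outside it. The nearest were 33.6 kb away on the side of its start and 47.4 kb away past its end. The region within 1 kb of its start held none. Tspan32, a tetraspanin gene of blood cells (chr7:143004907-143019486), had a peak 2.04 kb before its start, at chr7:143002780-143002962, and another in its body, at chr7:143008118-143008341. Both were narrow, at 183 and 224 bp, below the list's median of 262 bp.

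The stretch from Ascl2 to Kcnq1 held 3 further peaks, each with Trpm5 as its nearest gene. Trpm5, the cation channel of taste cells, had 2 in its body (chr7:143073198-143073386 and chr7:143086414-143086646) and 1 that was 0.290 kb before its start (chr7:143094812-143095052). The first of these was also the nearest to the tetraspanin gene Cd81, 5.36 kb away, and to Tssc4, 2.20 kb away. The stretch as a whole, 140 kb with 5 peaks, stood at 35.7 peaks per Mb.

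Kcnq1, a voltage-gated potassium channel gene of 320 kb (chr7:143106877-143427050), held 2 peaks. They lay 2.47 kb apart, at chr7:143151239-143151467 and chr7:143153935-143154186, in the first part of the gene. The rest of its body had none. At 6.25 per Mb this was the sparsest of the sub-regions that had a peak, while the 330 kb from the Kcnq1 end to the Osbpl5 end held 12 peaks, or 36.4 per Mb. For a gene of its length the number is ordinary: 122 protein-coding genes of 300 to 350 kb had a median of 2 peaks in the body, with a range of 0 to 18.

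Kcnq1ot1 (chr7:143213111-143296547), transcribed antisense to Kcnq1 from within it, held no peak over 83.4 kb. Its start, with 2 kb on each side for KvDMR1, held none either, and the nearest intervals were 140 kb away inside Kcnq1 and 165 kb away beyond Cdkn1c. Both RNA and control region lay in the longest peak-free stretch of the window, from chr7 position 143154186 to 143463921. It measured 310 kb, and 1700 of the 22734 gaps in the list were longer. The stretch held 3 genes whole, namely Kcnq1ot1, the non-coding RNA 4933417O13Rik and Cdkn1c.

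**Figure D3:**
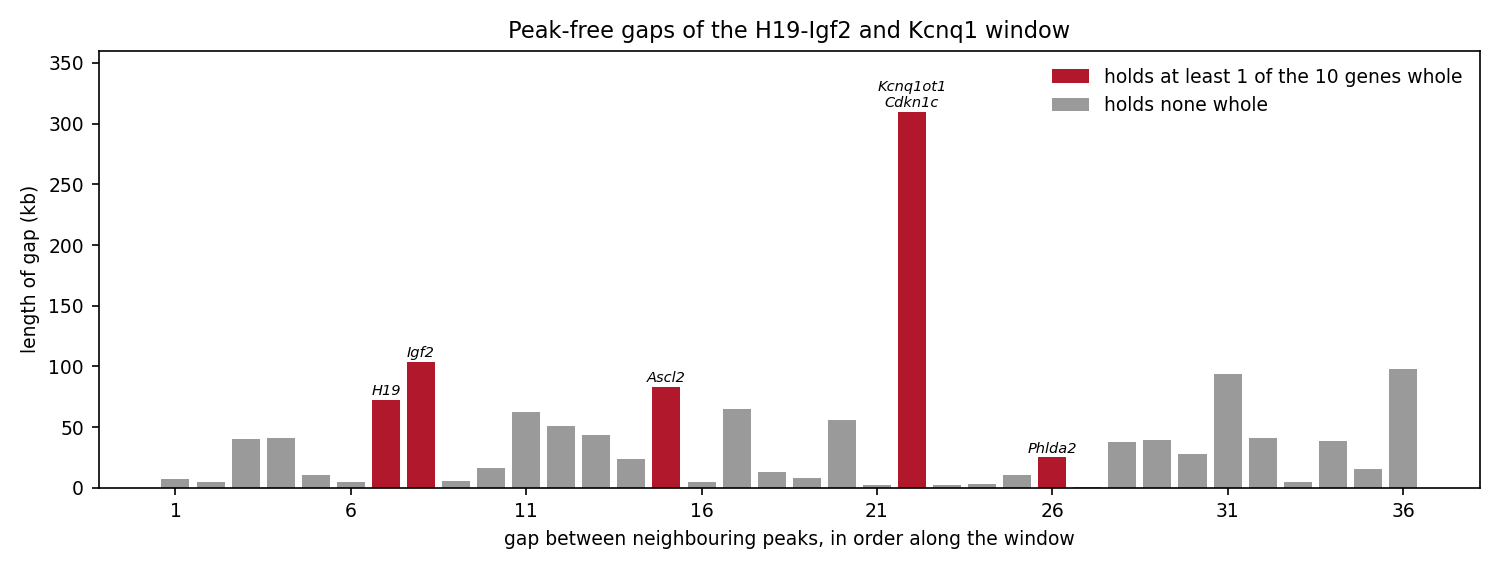
Length in kb of the 36 gaps between neighbouring peaks of the window, in order along the chromosome. Red bars hold at least 1 of the 10 genes whole and are labelled with it. The gap with Kcnq1ot1 and Cdkn1c reaches 310 kb and the shortest gap, 0.550 kb, lies beyond Phlda2.

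Cdkn1c, which encodes a cyclin-dependent kinase inhibitor that restrains growth, sits at the far border of that stretch (chr7:143458339-143461059). It had no peak in its body, but 3 within 10 kb, all on the side of its start. They were at chr7:143463921-143464202, chr7:143466305-143466713 and chr7:143470001-143470286, and the closest midpoint was 3.00 kb from the start. On the other side the nearest peak was 304 kb away. The first of the 3 lay in Gm33663, the second at the start of Gm33663 and the third 3.58 kb before Slc22a18.

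Slc22a18, an organic cation transporter-like gene (chr7:143473726-143499334), had 1 peak in its body, at chr7:143480555-143480857, and 6 when 10 kb on each side are included, more than any other of the 10 genes. Those 6 include all 3 peaks within 10 kb of Cdkn1c and both within 10 kb of Phlda2, so the counts of neighbouring genes are not independent. Phlda2, whose product restrains placental growth, had none in its body. Its pair of peaks, at chr7:143505935-143506174 and chr7:143506725-143507016, lay 2.91 and 3.73 kb before its start by the gene table (the promoter table has a start further inside) and 0.550 kb apart. Each of the 4 peaks from Gm33663 to Slc22a18 had 3 others within 25 kb, the highest number in the window, a number that 4326 of the 22755 peaks on chromosomes 1 to 19, X and Y also reached or passed.

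Osbpl5, an oxysterol-binding lipid transfer protein gene (chr7:143688762-143757008), held 3 peaks, the most in the body of any of the 10. They were at chr7:143706667-143707113, chr7:143748434-143748853 and chr7:143754030-143754350, the last 2.82 kb inside the start. They were 447, 420 and 321 bp wide, all above the list's median. Between Phlda2 and Osbpl5 there was 1 peak each in the histone chaperone gene Nap1l4 (chr7:143544460-143544746), in Cars, which encodes cysteinyl-tRNA synthetase (chr7:143584020-143584309), and in Tnfrsf26 (chr7:143612351-143612576). Tnfrsf22 and Tnfrsf23, decoy receptor genes next to it, had none within 10 kb.

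**Figure D4:**
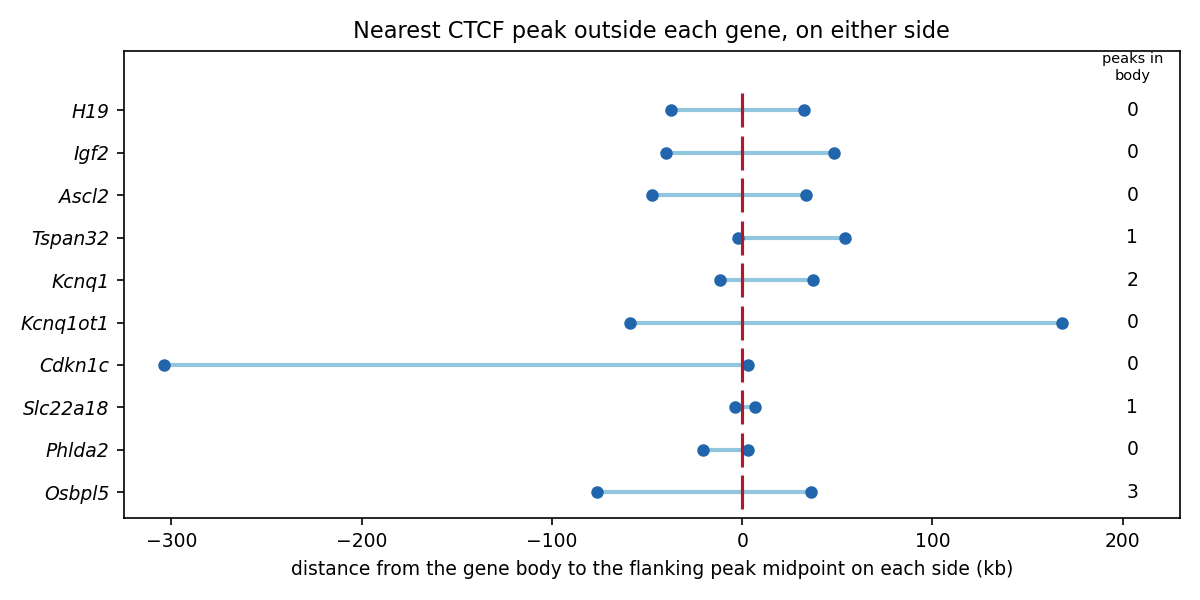
Distance in kb from each of the 10 gene bodies (red tick at 0) to the nearest peak midpoint outside it on either side (blue points), with the number of peaks in the body at the right. H19, Igf2, Ascl2 and Kcnq1ot1 have no point within 30 kb, while Slc22a18 has points within 10 kb on both sides.

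At the gene ends, with a margin of 1 kb, 0 of the 10 carried a peak, against 8.30% of all 49603 genes. A peak inside the gene was present in 4 (Tspan32, Kcnq1, Slc22a18 and Osbpl5), against 17.2% of all genes. Counting also the 10 kb on each side, 6 genes had a peak, which adds Cdkn1c and Phlda2, against 36.2% of all genes. The 43 other genes of the window had like shares to the 10, with 32.6% inside and 55.8% inside or within 10 kb. With 10 genes these shares are imprecise, and neighbours share peaks. The shares over all genes were not matched for gene length or type, and Kcnq1 and Osbpl5 span 320 and 68.2 kb. The median distance from body to nearest peak was 2.96 kb for the 10 genes and 24.9 kb for all genes. The 4 genes without a nearby peak were not far out by this measure. H19 at 32.6 kb stood at percentile 54.7 of all genes, Ascl2 at 33.6 kb at percentile 55.2, Igf2 at 40.0 kb at percentile 58.2 and Kcnq1ot1 at 59.1 kb at percentile 65.1. Of the 10 genes, 7 matched the RefSeq promoter table, with 12 windows, and 0 of the 12 was overlapped by a peak. H19, Kcnq1 and Cdkn1c were not matched. A peak overlapped 3.59% of the 32851 promoter windows in the genome.

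Among 25 further named genes in the window, 16 (64.0%) had a peak inside or up to 10 kb outside the gene, and 9 (36.0%) inside it. Within 1 kb of an end, 0 of the 10 chosen genes had a peak, and 3 of these 25 did. The 3 were Syt8, a synaptotagmin gene, Mrpl23, a mitochondrial ribosomal protein gene, and Trpm5. Among all 43 other genes of the window, 4 (9.30%) had a peak there, which adds Gm33663. The difference from the 10 genes was not tested. Of the 25, those with no peak inside or up to 10 kb outside were Ctsd, Mir675, Mir483, Igf2os, Ins2, R74862, Tnfrsf22, Tnfrsf23 and Dhcr7. Over all 53 genes of the window, 30 (56.6%) had one inside or up to 10 kb outside.

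Before H19, the 200 kb flank held 7 peaks. Nearest genes were the small nuclear RNA gene Gm26143 for chr7:142428184-142428560, Syt8 for chr7:142435629-142435880 and chr7:142440643-142440868, and Lsp1, an actin-binding protein gene of leukocytes, for chr7:142481253-142481582. Tnnt3, the fast skeletal troponin T gene, was nearest to chr7:142522471-142522648, which was 178 bp wide and among the narrowest of the list (percentile 1.81). Mrpl23 held 2, at chr7:142533014-142533211 and chr7:142537965-142538514. The second of these, 550 bp wide, bordered the peak-free stretch around H19. After Osbpl5, the 200 kb flank held 3 peaks. The NAD synthetase gene Nadsyn1 was nearest to chr7:143793175-143793370 and chr7:143808957-143809149, and the actin gene Acte1 to chr7:143907427-143907750.

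In all, 24 of the 37 peaks lay inside a gene, 6 lay within 1 kb of a gene end, and 11 had one of the 10 imprinted genes as the nearest. With protein-coding genes alone, 14 did. The median width of the 37 was 242 bp (quartiles 224 and 321 bp, range 178 to 585 bp), against 261 bp in the rest of chromosome 7. By peaks per Mb the domain was peak-rich. It held 23.4 peaks per Mb, against 10.00 in the rest of chromosome 7 and 8.55 over all chromosomes. Among 1509 windows of the same length on chromosomes 1 to 19 the median was 10 peaks (quartiles 4 and 20), and the domain's 37 stood at percentile 91.1. These windows were not matched for gene content. Median gaps between neighbouring peaks differed less, at 26.6 kb in the domain, 29.9 kb in the rest of chromosome 7 and 32.5 kb over all chromosomes. The median number of other peaks within 25 kb was 1 in the domain and in the whole list. The share of peaks within 1 kb of a gene end was 16.2% in the domain, 19.7% in the rest of the chromosome, and 16.5% over all chromosomes.

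**Figure D5:**
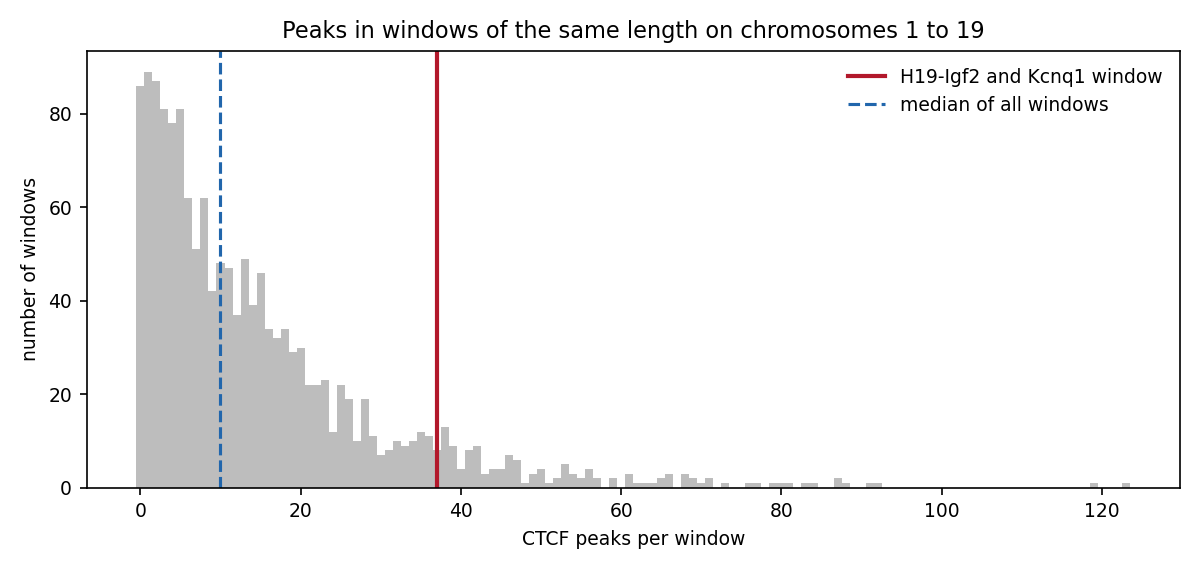
Number of CTCF peaks (x axis) in 1509 windows of the domain's length on chromosomes 1 to 19, with the number of windows on the y axis. The red line marks the 37 peaks of the domain and the dashed line the median of 10 peaks, with the highest window at 123.

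The imprinted Dlk1-Meg3 domain of chromosome 12, taken with the same flanks (chr12:108832181-110481097), is of like length. It held 14 peaks, or 8.49 per Mb, and 0 of them lay within 1 kb of a gene end. Median spacing between neighbouring midpoints was nevertheless 22.2 kb there, against 26.8 kb in the H19-Igf2 and Kcnq1 window. Of the 7 Dlk1-Meg3 genes, 1 had a peak inside or up to 10 kb outside, Rian, against 36.2% of all genes. Rtl1 had its nearest peak just past that margin, at 10.3 kb, and Dlk1 and Meg3 had theirs at 51.1 and 43.0 kb. The difference between the domains was not tested, since both were picked by name and neither has replicate lists.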

How the data were processed

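Per the labels, CTCF was precipitated with a spike-in of Drosophila chromatin. Named in the submitters' processing notes, without versions or roles, are the tools MACS2, Picard and STAR and the builds mm10 and dm6. The sources used here do not say how the authors called, thresholded and merged the peaks. The deposited list gives chromosome, start and end of each merged interval and no score, so no value was normalised and no pairing, replicate or depth could be used. Starts were converted to count from 1. Genes came from RefSeq GRCm38.p6 (chromosomes 1 to 19, X and Y, without genes placed below 3 Mb). A peak was placed by its midpoint, and control regions by overlap with the interval. Most control regions were set by distance from a gene start. The H19 enhancers were set from the H19 end, and the Igf2 regions as the gene body with 5 kb before its start. The middle region was set around the midpoint between H19 and Igf2. Strands came from the promoter table, and for H19, Kcnq1 and Cdkn1c from textbook knowledge. Percentiles and shares describe positions and carry no test. All 10 imprinted genes, the nearest gene of each peak and a set list of neighbours were named. The genes and lists were chosen with earlier results of these data known. Counting functions were tested on simulated data. Python 3.11.15, numpy 2.4.6 and pandas 2.3.3 were used.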

Additional observations from a re-analysis of the deposited data

How the results depend on the processing

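No paired analysis was possible because the list merges all libraries and no interval carries a replicate number. With peaks at least as wide as the list's median, 16 of the 37 remained in the window, the control regions with a peak fell to 0, since the 213 bp peak between H19 and Igf2 is narrower, and 4 imprinted genes had a peak inside or up to 10 kb outside. Within 2.5 kb of an end, 1 of the 10 genes had a peak, Tspan32. Flanks of 0, 100 and 500 kb gave 27, 33 and 52 peaks at 22.9 to 23.9 per Mb. With the gene body alone, 4 imprinted genes had a peak in place of 6, without Cdkn1c and Phlda2. Merging neighbours under 500 bp apart and control regions widened by 1 kb changed no count. Margins of 5 and 20 kb around the gene body, or any overlap in place of the midpoint, changed none either. The placing of the control regions rests on the positions of gene starts, ends and bodies, not on measured methylation.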
